A study of Mus musculus with 10 samples.

Results

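The structural RNA genes with RefSeq rows were Rn45s (NR_046233), Mir6236 (NR_105744), Rmrp (NR_001460), Rpph1 (NR_002142) and Terc (NR_001579). They were found by gene symbol in a table of mouse lung transcripts in FPKM, which are sequenced fragments scaled to transcript length and to the mapped fragments of the library, and each of the 5 had 1 row with a value in all 10 libraries. The table held 66548 rows, of which 34943 carried a RefSeq identifier and 31605 were models that the assembler built and to which no gene symbol was given. Of the RefSeq rows, 29906 were protein-coding (identifiers starting with NM_) and 5037 were non-coding (NR_). The 5 genes were picked with their FPKM in these libraries known, namely the levels of Rn45s and Rmrp in the 3 groups and the share of protein-coding RNA. Their levels are therefore given as a description, with no test.

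RNA-seq had been done on whole lung of female BALB/c mice that were 8 weeks old when bought, with 1 library per mouse. Saline mice (n = 3) were the controls and received neither ovalbumin nor extract. OVA mice (n = 3) were sensitised to ovalbumin, an egg protein, by injections with alum into the abdomen and then challenged with it through the nose, a model of allergic asthma. Herb mice (n = 4) underwent the same ovalbumin protocol and were given the ethanol extract of Descurainia sophia seeds (DSE) by mouth. The methods do not say plainly whether Saline and OVA mice were given the vehicle of the extract. Comparing OVA with Saline addresses the asthma model. Comparing Herb with OVA addresses the extract, together with its vehicle and dosing by mouth if OVA mice were not given the vehicle.

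Ribosomal RNA is made by RNA polymerase I as 1 long precursor, which Rn45s stands for, and the precursor is cut and trimmed in the nucleolus into the RNAs of both ribosomal subunits. Rmrp is the RNA of RNase MRP, an enzyme that cuts within this precursor, and Rpph1 is the catalytic RNA of RNase P, which removes the leader of transfer RNA precursors. Both are made by RNA polymerase III and share most of their proteins. Terc carries the template from which telomerase adds telomere repeats. Mir6236 is annotated as a microRNA gene, but its annotated precursor closely resembles a stretch of 28S ribosomal RNA, and it is treated here as derived from ribosomal RNA. The mature forms of these RNAs have no poly(A) tail, whereas the library kits named by the labels and the methods select poly(A) RNA.

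Short stretches of the RNAs show what the rows stand for. The mature miR-6236 (RefSeq, GRCm38.p6, chr9:110281353-110281371, plus strand) is shown first because its row had the widest range of the 5, with its seed, bases 2 to 8, in capitals. The Terc stretch (GENCODE vM21, GRCm38, chr3:96414804-96414833, minus strand) holds the telomere template in capitals. The Rmrp stretch (chr4:43493029-43493058, minus strand) is the start of the most abundant of these RNAs.
mmu-miR-6236: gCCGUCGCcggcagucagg
Terc: acCTAACCCTgattttcattagctgtgggt
Rmrp: gctcgctctgaaggcctgtttcctaggcta

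None of the other mature sequences among the 1738 in the RefSeq table shared the seed of miR-6236. The mature sequence occupied bases 67 to 85 of the 123-base precursor. In the letters searched here, CTAACCCT on the sense strand, the Terc template occurred 1 time in the RNA, at bases 3 to 10 of its RefSeq start. Sequences were matched for 4 of the 5 genes. No sequence of Rn45s was used here, so its likeness to Mir6236 was not aligned.

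Mir6236 lies at chr9:110281287-110281409 of GRCm38.p6, inside the long non-coding RNA gene Gm39429. Rmrp lies at chr4:43492785-43493059 and Terc at chr3:96414437-96414833, both on the minus strand. Rpph1 lies at chr14:50807447-50807771 on the minus strand, 126 bases from the protein-coding gene Parp2. The reference annotation used here gave no position for Rn45s. In the order of the FPKM rows, the nearest rows with a symbol were Esp15 and Esp38, both on chromosome 17. The annotation also shows what else a read could belong to. In GENCODE, 124 of the bases of Rmrp lie in an exon of Ccdc107 on the opposite strand, and 233 of the bases of Rpph1 lie in an untranslated exon of Ccnb1ip1 on the same strand. As a result, 158 of the 244 windows of read length (76 bases) in Rpph1 also occurred in a Ccnb1ip1 transcript, and 49 of the 196 in Rmrp also occurred in a Ccdc107 transcript. Whether counting used the strand is not stated, so reads of Rmrp and Ccdc107 over that exon cannot be told apart. The level of Ccnb1ip1 in the table did not exceed 0.240 FPKM in any library, and that of Ccdc107 lay between 0.514 and 6.82 FPKM. No window of Terc or Mir6236 occurred in the GENCODE transcripts of another gene. Those transcripts held no sequence of Rn45s or of the ribosomal RNA that Mir6236 resembles. The search therefore cannot show whether reads of Mir6236 also belong to ribosomal RNA.

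The depth, estimated from low FPKM values, was 14800000 to 29500000 mapped fragments a library. With that depth 34.3% to 42.6% of the low values came within 0.1 of a whole fragment, so the fragment numbers given here are approximate. Libraries of 1 group correlated across genes with r from 0.739 to 0.894, where genes are not independent replicates. Markers of lung epithelium were present in all libraries, which is what lung tissue should show. Their 6 genes summed to 17228 to 26781 FPKM in Saline, 2936 to 5543 in OVA and 8662 to 13850 in Herb. The 4 erythroid genes found of 5 listed summed to 5731 to 6965, 30.9 to 561 and 1075 to 1582 FPKM in the same order. The 4 endothelial genes summed to 326 to 396, 56.2 to 97.9 and 126 to 254 FPKM, and the 5 leukocyte genes to 26.2 to 68.3, 5.91 to 8.10 and 14.1 to 47.2 FPKM. The 4 heart muscle genes, which can come with lung tissue, summed to 4.2 to 43.2, 5.63 to 9.42 and 5.42 to 17.5 FPKM. No listed marker stood at 0 in all libraries. Their part in the results on the structural RNAs was not tested. The sums are FPKM as deposited, in which most genes were lower in OVA than in Saline (median log2 difference -0.75 over 11205 genes). In whole lung, fewer cells of a type, less RNA per cell and a larger share of other RNAs cannot be told apart. The paper reported more inflammatory cells in fluid washed from the airways of OVA than of Saline mice.

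The row of the ribosomal RNA precursor, Rn45s, was low in Saline, highest in OVA and intermediate in Herb. Reads of the mature RNAs cut from the precursor could fall on this row, so precursor and mature RNA cannot be told apart here. How much RNA without a poly(A) tail passed the selection in each library was not measured. For Rn45s and Mir6236 it therefore cannot be told apart from the level in lung. Rn45s stood at 1386, 1336 and 1201 FPKM in Saline, 10201, 10014 and 13531 in OVA and 5066, 3230, 6545 and 7019 in Herb. No library of 1 group overlapped another group, and the Saline libraries lay much closer together than the Herb libraries. The means were 1307 ± 95.8 FPKM (SD, n = 3), 11249 ± 1979 FPKM (SD, n = 3) and 5465 ± 1707 FPKM (SD, n = 4). The coefficient of variation was 7.32% in Saline, 17.6% in OVA and 31.2% in Herb. The ratio of means was 8.60 for OVA over Saline, 2.06 for OVA over Herb and 4.18 for Herb over Saline.

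Mir6236 followed the same order with larger ratios. It stood at 80.1, 83.5 and 36.2 FPKM in Saline, 935, 1773 and 2745 in OVA and 305, 171, 623 and 771 in Herb. The groups did not overlap, although OVA replicate 1 stood close above the highest Herb library. The means were 66.6 ± 26.4 (SD, n = 3), 1818 ± 906 (SD, n = 3) and 468 ± 277 FPKM (SD, n = 4), which gives ratios of 27.3 for OVA over Saline and 3.89 for OVA over Herb. From the estimated depth, the row stood for 91.6 to 222 fragments in the Saline libraries and 3394 to 6888 in the OVA libraries.

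**Figure D1:**
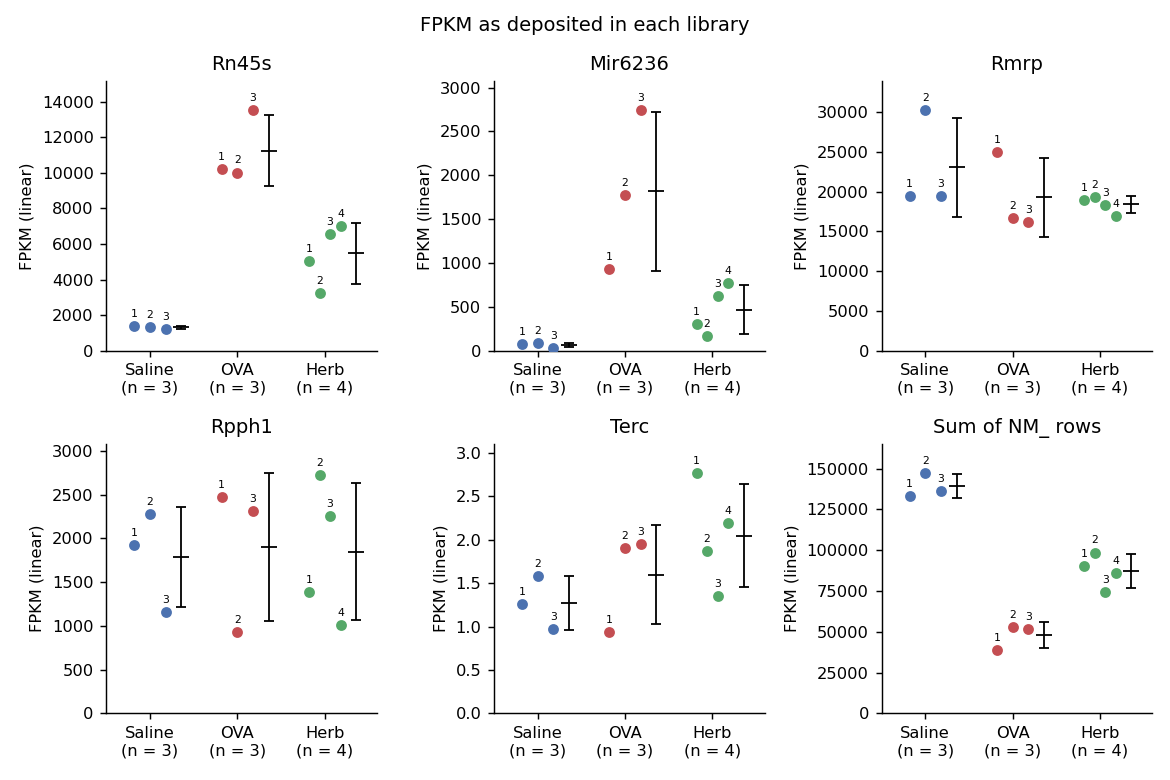
FPKM on a linear axis for each of the 5 structural RNAs and for the sum of the NM_ rows, with 1 numbered point per library (replicate number) and the group mean ± SD beside it. Rn45s and Mir6236 separate the 3 groups with OVA highest, the NM_ sum separates them with OVA lowest, and Rpph1 and Terc overlap in every pair of groups.

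Within the groups the rRNA-derived rows ran in a similar order. Saline replicate 3 was lowest in both, OVA replicate 3 was highest in both, and the Herb libraries ran in the order 2, 1, 3 and 4 in both. Replicates 1 and 2 changed places in Saline and in OVA. Over all 10 libraries the log2 values of the pair correlated with Pearson's r = 0.98, which describes libraries that share 1 composition and fall into separate groups.

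The rows did not rise in the same proportion. For each 1000 FPKM of Rn45s there were 57.8, 62.5 and 30.1 FPKM of Mir6236 in Saline. There were 91.7, 177 and 203 in OVA. In Herb there were 60.2, 53.0, 95.2 and 110. All OVA libraries stood above all Saline libraries in this ratio, and the Herb libraries overlapped both groups. The ratio of geometric means was 3.12 for OVA over Saline, 0.511 for Herb over OVA and 1.59 for Herb over Saline. On the log2 scale the pooled SD between libraries of a group was 0.56, against differences of 1.64, -0.97 and 0.67. A common factor applied to a library cancels in this ratio, so it does not depend on scaling between libraries. Whether reads were shared between Mir6236 and Rn45s was not tested, so the ratio may also reflect how reads were assigned.

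The summed FPKM of the protein-coding rows ran in the opposite order. It was 133354, 147533 and 136556 in Saline. It was 39136, 52995 and 51994 in OVA. In Herb it was 90510, 98580, 74117 and 86096. The groups did not overlap, and the mean sum in OVA was 0.345 times that in Saline, while that in Herb was 1.82 times that in OVA. Among the Herb libraries, replicate 2 had the highest NM_ sum and the lowest Rn45s and Mir6236. Replicate 3 had the lowest NM_ sum with the second highest Rn45s. Within OVA this order was not seen, since replicate 1 had the lowest NM_ sum and the lowest Mir6236. No correlation is given because the groups form separate clusters of 3 to 4 libraries.

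**Figure D2:**
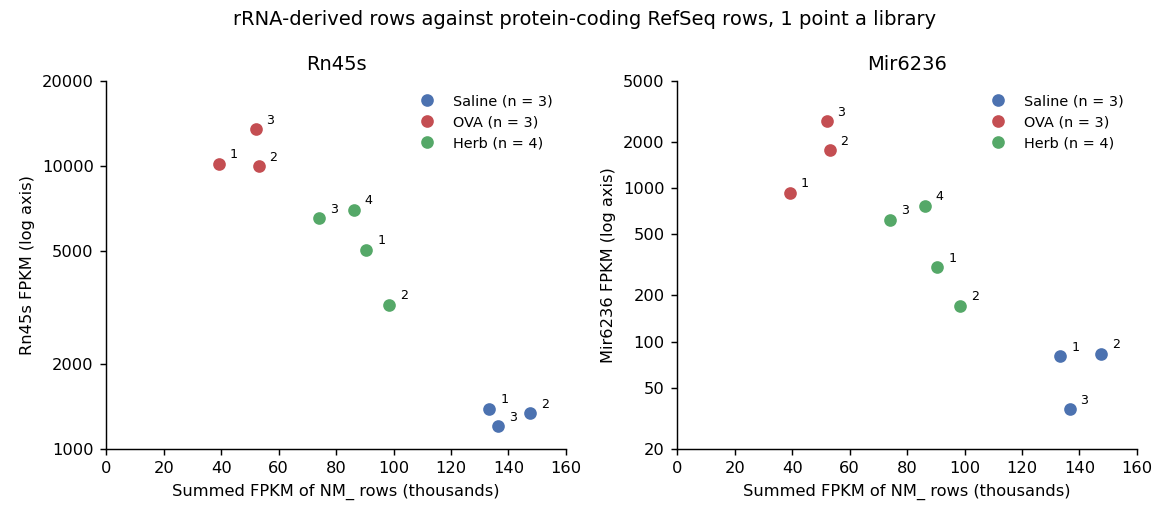
FPKM of Rn45s (left) and Mir6236 (right), both on log axes, against the summed FPKM of NM_ rows in units of 1000, with 1 point per library numbered by replicate. The Saline libraries sit at the lower right, the OVA libraries at the upper left and the 4 Herb libraries between them.

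Set against the NM_ sum, Rn45s spread further. For each 1000 FPKM of NM_ rows there were 10.4, 9.05 and 8.79 FPKM of Rn45s in Saline. There were 261, 189 and 260 in OVA. In Herb there were 56.0, 32.8, 88.3 and 81.5. The ratio of geometric means was 24.9 for OVA over Saline and 6.42 for Herb over Saline, and it was 3.88 for OVA over Herb. For Mir6236 these ratios were 77.7, 10.2 and 7.60. Both members of this comparison share each library's total, so a larger share of 1 lowers the other. Measured in fragments, the NM_ rows with a known length held 33.1% to 33.4% of mapped fragments in Saline, 11.9% to 14.9% in OVA and 19.4% to 25.8% in Herb.

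Other rows took up part of the same libraries. The assembled models without a symbol summed to 472741 to 551450 FPKM in Saline, 1040777 to 1097417 in OVA and 591858 to 861420 in Herb. Whether these models hold reads of named genes was not tested, so a lower sum for a symbol need not mean less RNA. Rn45s itself held 0.180% to 0.193% of all summed FPKM in Saline, 0.876% to 1.13% in OVA and 0.445% to 0.745% in Herb. Among NR_ rows its share rose from 2.86% to 4.04% in Saline to 21.3% to 30.3% in OVA, with 9.25% to 20.6% in Herb. These are shares of FPKM, which divides by transcript length, and not of fragments. The share of fragments on Rn45s was not estimated, since no length of Rn45s was used here.

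Rmrp, the RNase MRP RNA, was the most abundant row with a symbol in every library. It stood at 19407, 30275 and 19453 FPKM in Saline, 24987, 16640 and 16177 in OVA and 18996, 19295, 18301 and 16981 in Herb. OVA overlapped both other groups, and Saline replicate 2 and OVA replicate 1 stood above the rest. The 4 Herb libraries were close together (18393 ± 1030 FPKM, SD, n = 4) and all lay below the 3 Saline libraries (23045 ± 6261 FPKM, SD, n = 3), by as little as the gap between 19295 and 19407 FPKM. The mean in OVA was 19268 ± 4958 FPKM (SD, n = 3). Rmrp alone held 36.2% to 64.7% of the FPKM of all NR_ rows.

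Rpph1, the RNase P RNA, varied more between mice than between groups. It stood at 1927, 2278 and 1154 FPKM in Saline, 2468, 931 and 2315 in OVA and 1388, 2722, 2258 and 1013 in Herb. Every pair of groups overlapped, and low and high libraries occurred in each group. The means were 1786 ± 575, 1905 ± 847 and 1845 ± 784 FPKM (SD, n = 3, 3 and 4). The ratio of Rmrp to Rpph1 ranged from 6988 to 17873 FPKM of Rmrp for each 1000 FPKM of Rpph1, and both ends of that range were OVA libraries.

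The genome also holds the RNase P RNA-like genes Rprl1, Rprl2 and Rprl3, whose first 30 bases (GENCODE vM21, GRCm38, chr6:69327141-69327170, chr3:22251374-22251403 and chr8:3803329-3803358) are set beside that of Rpph1 (chr14:50807738-50807767), since reads of the family could be shared. Rprl2 lies on the plus strand and the others on the minus strand. Bases that differ from Rpph1 are in capitals.
Rpph1: ggcggaggaagctcatcagcggggccacgt
Rprl1: ggcggaAgaagTtTatcagTggggccacgt
Rprl2: ggcggaggaagctcatcagTggggccacgt
Rprl3: ggcggaggaagctAatcagcAgggccacgt

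Rprl1 differed from Rpph1 at 4 of these bases, Rprl2 at 1 and Rprl3 at 2. Over the 236 bases of a local alignment Rprl3 was identical to Rpph1 at 93.6%, and the longest run shared without a difference was 37 bases, shorter than a read of 76 bases. Rprl3 stood at 877, 1321 and 879 FPKM in Saline, 329, 414 and 435 in OVA and 605, 661, 517 and 594 in Herb. The groups did not overlap, which was not the case for Rpph1. Rprl3 ran in the order of the NM_ sum, except that OVA replicates 2 and 3 changed places. For each 1000 FPKM of NM_ rows Rprl3 stood between 6.44 and 8.95 FPKM in all 10 libraries. Over the same NM_ rows Rpph1 stood between 8.45 and 63.1 FPKM. Rprl2 stood at 6.02 to 47.3 FPKM and Rprl1 at no more than 0.102 FPKM. Whether reads were shared between Rpph1 and Rprl3 was not tested.

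**Figure D3:**
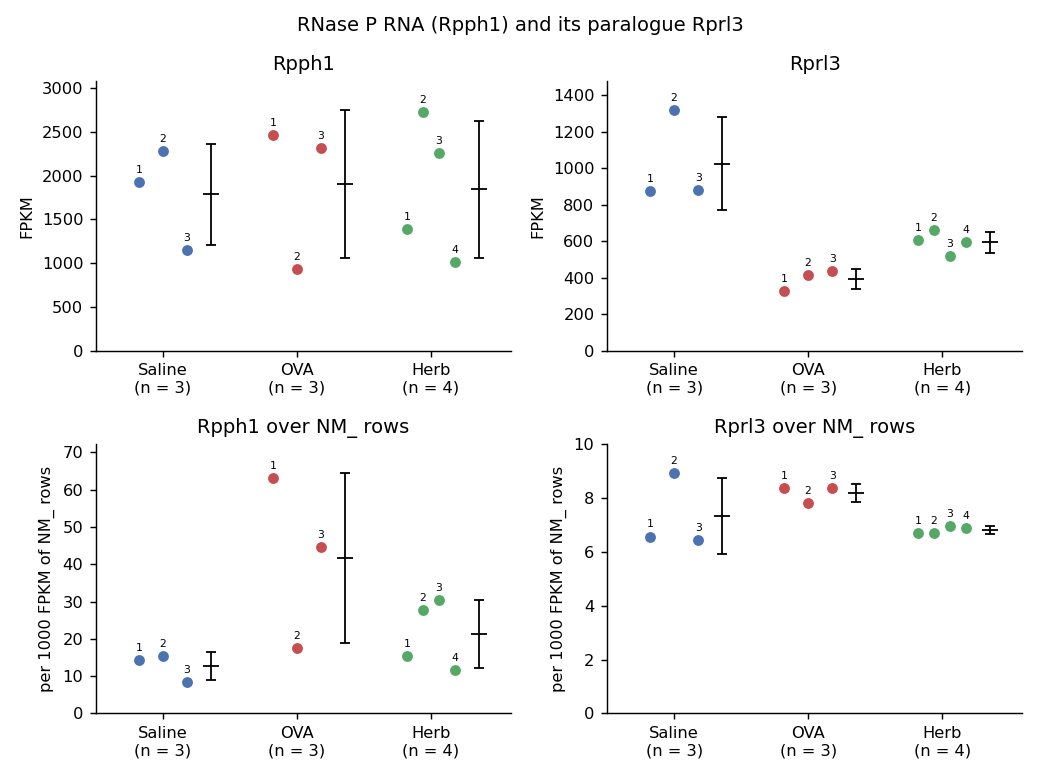
FPKM of Rpph1 and Rprl3 (upper panels) and the same values for each 1000 FPKM of NM_ rows (lower panels), on linear axes from 0, with 1 numbered point per library and the group mean ± SD. Rprl3 separates the groups in FPKM and stays between 6.44 and 8.95 over the NM_ rows, whereas Rpph1 overlaps between groups in FPKM.

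Terc, the telomerase RNA, was low in every library. It stood at 1.25, 1.58 and 0.968 FPKM in Saline, 0.935, 1.91 and 1.95 in OVA and 2.77, 1.87, 1.35 and 2.19 in Herb. All pairs of groups overlapped. These values stood for an estimated 7.47 to 18.8 fragments a library. In Saline replicate 3, about 8 fragments gave an exact 95% Poisson interval of 0.422 to 1.93 FPKM. In Herb replicate 1, about 19 fragments gave 1.69 to 4.37 FPKM. Such intervals cover counting error only. Tert, the reverse transcriptase that Terc serves, stood at 0.0831 to 0.225 FPKM in Saline, 0.328 to 0.563 in OVA and 0.250 to 0.425 in Herb, below the minimum of 1 FPKM set for testing.

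The abundance order of the 5 RNAs was stable at its top and moved below it. Among the 5037 NR_ rows Rmrp ranked 1 in all libraries. Rn45s ranked between 2 and 6, Rpph1 also between 2 and 6, Mir6236 between 4 and 29 and Terc between 262 and 819. Rn45s passed Rpph1 in every OVA and Herb library, and it lay below Rpph1 in Saline replicates 1 and 2 but not in replicate 3. Together the 5 rows held 66.4% to 72.7% of NR_ FPKM in Saline, 77.3% to 80.7% in OVA and 72.8% to 75.8% in Herb.

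Counted over the members, 2 of 5 (Rn45s and Mir6236) were higher in all OVA than in all Saline libraries and 0 were lower. Of the 11205 genes with a mean of at least 1 FPKM, 4.68% were higher and 63% lower without overlap in this comparison. In Herb vs. OVA 0 members were higher and 2 lower, against 49.6% higher and 0.651% lower of all genes. In Herb vs. Saline 2 members were higher and 1, Rmrp, was lower, against 6.94% and 36.6%. Since the members were picked on these contrasts, nothing is read from the counts. All 5 members passed the minimum mean of 1 FPKM.

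The differences on the log2(FPKM + 1) scale depended on how libraries were scaled. As deposited, the median log2 difference over the 11205 genes was -0.75 in OVA vs. Saline, 0.48 in Herb vs. OVA and -0.27 in Herb vs. Saline. After each library was rescaled to a common 75th percentile of RefSeq rows, the medians were 0.07, 0.02 and 0.09. Rn45s kept its direction under both scalings, with a difference of 3.09 ± 0.31 (SE, limma) as deposited and 4.25 ± 0.38 rescaled in OVA vs. Saline. In Herb vs. OVA it was -1.09 ± 0.29 as deposited and -1.77 ± 0.35 rescaled. Mir6236 kept its direction too, at 4.71 ± 0.63 and 5.85 ± 0.66 in OVA vs. Saline and at -2.05 ± 0.59 and -2.73 ± 0.62 in Herb vs. OVA.

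The other members kept their sign only in part, and the log2(FPKM + 1) scale understates changes at the low level of Terc. Rmrp differed by -0.25 ± 0.28 in OVA vs. Saline as deposited and by 0.90 ± 0.36 once libraries had the same 75th percentile. Rpph1 differed by 0.02 ± 0.50 as deposited and by 1.18 ± 0.54 rescaled in the same comparison, and by -0.00 ± 0.47 and 0.47 ± 0.50 in Herb vs. Saline. Terc differed by 0.24 ± 0.21 in Herb vs. OVA as deposited and by -0.20 ± 0.18 rescaled. Over the NM_ sum, all Rmrp, Rpph1 and Terc values of OVA lay above those of Saline, whereas in FPKM as deposited none of the 3 separated these groups. For Rmrp there were 146, 205 and 142 FPKM for each 1000 FPKM of NM_ rows in Saline, 638, 314 and 311 in OVA and 210, 196, 247 and 197 in Herb.

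**Figure D4:**
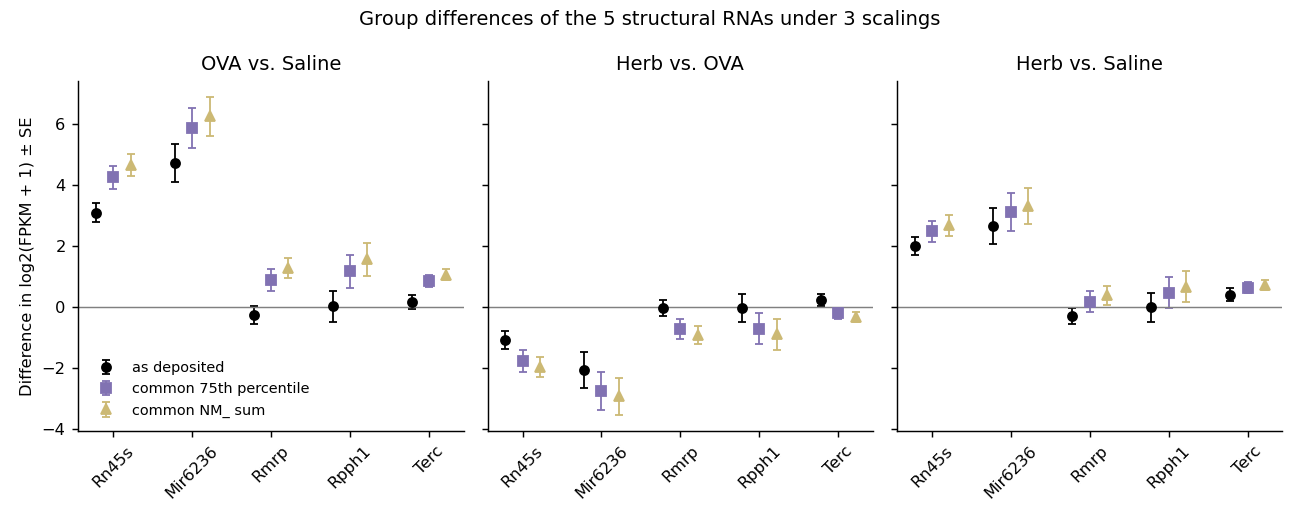
Differences between groups in log2(FPKM + 1) ± SE from the limma fit for the 5 structural RNAs in the 3 comparisons, as deposited (circles), rescaled to a common 75th percentile (squares) and rescaled to a common NM_ sum (triangles). Rn45s and Mir6236 stay on 1 side of 0 under all 3 scalings, while Rmrp and Rpph1 sit near 0 as deposited and above it in OVA vs. Saline after rescaling.

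The genes whose pattern was most like each member were ranked by Pearson's r of log2(FPKM + 1) over the 10 libraries among 12393 rows. These values describe libraries of shared composition. The nearest of 12393 rows over 10 libraries has a high r by selection alone, so no link between genes is read from it. After Mir6236, the rows most like Rn45s were Mir143hg (r = 0.97), Sfn (r = 0.97) and Rbpjl (r = 0.96). Mir143hg, a host transcript of microRNAs, stood at 2.52 to 3.44 FPKM in Saline, 8.33 to 9.19 in OVA and 4.83 to 6.83 in Herb, so it separated the groups as Rn45s did. Rmrp was most like the small nucleolar RNA Snora15 (r = 0.88), which was highest in the same libraries, Saline replicate 2 at 11.3 FPKM and OVA replicate 1 at 13.9 FPKM. For Rpph1 the nearest was Usp10 (r = 0.88).

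Terc was most like Kif22 (r = 0.94), Hist1h3d (r = 0.93) and Ccnb2 (r = 0.92). Kif22 is a mitotic motor protein, Hist1h3d a replication-dependent histone and Ccnb2 a mitotic cyclin. Ccnb2 stood at 0.732, 1.05 and 0.609 FPKM in Saline, 0.488, 1.24 and 1.31 in OVA and 2.02, 1.07, 1.14 and 2.24 in Herb. Like Terc, it was lowest of all in OVA replicate 1. The 4 cycling-cell markers Mki67, Top2a, Ccnb1 and Cdk1 summed to 3.83 to 5.77 FPKM in Saline, 4.64 to 9.93 in OVA and 8.53 to 16.7 in Herb, and their part in the level of Terc was not tested.

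Protein genes around these RNAs were then described from 6 lists with 130 genes, all found in the table, of which 121 reached a mean of 1 FPKM. As deposited, 83 of the 121 fell and 1 rose in OVA vs. Saline (limma, adjusted p under 0.05 over the 11205 genes), against 57.9% of all genes called lower and 3.28% called higher. The median log2 difference of the lists was -0.71, close to the -0.75 of all genes. After rescaling to the 75th percentile, 13 fell and 27 rose, against 17.3% and 23.8% of all genes, with a median of 0.13. In Herb vs. OVA 47 rose and 0 fell as deposited, against 44% and 0.446% of all genes. Rescaled, limma called 0 of the 121 (29 at an unadjusted p under 0.05), against 0.366% of all genes called higher and 0.455% called lower. In Herb vs. Saline 40 fell and 0 rose, against 22.7% and 3.32% of all genes, and rescaled 6 fell and 5 rose, against 5.07% and 10.7%. With libraries brought to the same NM_ sum, 53 of the 121 rose and 7 fell in OVA vs. Saline, against 37.8% and 8.81% of all genes. On that scale 0 rose and 14 fell in Herb vs. OVA, against 0.625% and 4.92%, and 11 rose and 2 fell in Herb vs. Saline, against 18.4% and 2.86%. These shares of all genes also apply to the counts of each list below.

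RNA polymerase I makes the precursor that Rn45s stands for. Of its machinery, 6 of 14 genes tested fell in OVA vs. Saline as deposited and 0 rose, against 57.9% and 3.28% of all genes. This list turned with the scaling, since 2 fell and 6 rose after rescaling to the 75th percentile, and 0 fell and 8 rose over the NM_ sum. The RNA polymerase I subunit gene Twistnb was lower in log2 units, at -1.40 ± 0.18 (limma adjusted p = 0.000232). Rrn3, the factor that brings the polymerase to ribosomal DNA, fell from 6.47, 6.86 and 6.0 FPKM in Saline to 1.71, 2.16 and 2.18 in OVA and stood at 4.11, 3.76, 3.92 and 4.06 in Herb. Its groups did not overlap, and its order was the reverse of that of Rn45s. Rrn3 and Twistnb were also lower in OVA after rescaling, at -0.41 and -0.54 (limma adjusted p = 0.0145 and 0.0197). The largest subunit gene Polr1a turned with the scaling, at -0.37 ± 0.11 as deposited (limma adjusted p = 0.0143) and 0.50 ± 0.08 rescaled (limma adjusted p = 0.00231). Ubtf, which binds ribosomal DNA, did not pass the test in any comparison, at -0.37 ± 0.19 in OVA vs. Saline (limma adjusted p = 0.124).

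Of the same 14, 4 rose in Herb vs. OVA as deposited. Polr1d, a subunit shared by RNA polymerases I and III, rose with a log2 difference of 0.94 ± 0.15 (limma adjusted p = 0.00716), and Twistnb with 0.75 ± 0.17 (limma adjusted p = 0.00979). Neither passed after rescaling (limma adjusted p = 0.111 and 0.22). Of the 14, 3 fell in Herb vs. Saline, with Twistnb at -0.65 ± 0.17 and Rrn3 at -0.58 ± 0.10 (limma adjusted p = 0.0259 and 0.00923). Rescaled, 0 of the 14 fell and 1 rose, and Twistnb and Rrn3 did not pass, at -0.25 and -0.18 (limma adjusted p = 0.251 for both).

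Of the pre-rRNA processing genes, 37 of 45 fell in OVA vs. Saline and 0 rose, against 57.9% and 3.28% of all genes. After rescaling 4 fell and 7 rose, against 17.3% and 23.8%. Nhp2l1, a protein of the small nucleolar particles that guide ribosomal RNA modification, stood at 15.0, 18.2 and 14.6 FPKM in Saline, 1.98, 3.60 and 3.17 in OVA and 7.74, 7.80, 5.85 and 8.81 in Herb. It fell in OVA vs. Saline under both scalings, at -2.13 ± 0.20 as deposited and -1.15 rescaled (limma adjusted p = 0.000145 and 0.00133). The nucleolar proteins Ncl and Npm1 fell as well, at -1.74 ± 0.17 and -1.93 ± 0.30 as deposited (limma adjusted p = 0.000149 and 0.000529) and at -0.71 and -0.81 rescaled (limma adjusted p = 0.00206 and 0.0245). Pes1, of the complex that matures the large subunit RNAs, fell by 2.06 ± 0.71 as deposited (limma adjusted p = 0.0299) but differed by -1.53 rescaled (limma adjusted p = 0.101). Its level was uneven, at 6.42, 7.01 and 1.37 FPKM in Saline, 0.135, 0.176 and 0.444 in OVA and 4.99, 4.70, 0 and 4.45 in Herb. The exact 0 in Herb replicate 3 can be a failed estimate.

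As deposited, 18 of the 45 rose in Herb vs. OVA, with Npm1 at 1.24 ± 0.28 and Nhp2l1 at 1.14 ± 0.18 (limma adjusted p = 0.00983 and 0.00716). Against Saline, 19 of the 45 were still lower in Herb, among them Nhp2l1 at -0.99 ± 0.18 and Ncl at -0.79 ± 0.16 (limma adjusted p = 0.0102 and 0.0122). Rescaled, 2 fell and 1 rose, with Nhp2l1 at -0.54 and Ncl, which did not pass, at -0.35 (limma adjusted p = 0.0409 and 0.058). Fbl, the RNA methyltransferase fibrillarin, was listed at 0 in all 3 Saline libraries, at 3.98, 0 and 2.11 FPKM in OVA and at 0, 4.04, 0 and 5.16 in Herb. Since fibrillarin is a gene that every cell uses, a value of exactly 0 can be a failed estimate.

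The RNA exosome, which trims and degrades precursor RNAs, had 12 of 17 genes lower in OVA vs. Saline and 0 higher. The shares of all genes were 57.9% and 3.28%. After rescaling 1 was lower and 3 were higher, against 17.3% and 23.8%. Over the NM_ sum 1 was lower and 8 were higher, against 8.81% and 37.8%. C1d, an exosome cofactor, fell by 1.45 ± 0.16 as deposited (limma adjusted p = 0.000157) and differed by -0.67 rescaled (limma adjusted p = 0.00509). Papd5, which adds short A tails that mark RNAs for the exosome, fell by 1.05 ± 0.13 as deposited (limma adjusted p = 0.000216) and differed by -0.05 rescaled. The nucleases Dis3 and Exosc10 had differences of -0.65 ± 0.20 and -0.45 ± 0.38 (limma adjusted p = 0.0182 and 0.327), of which the first passed. Of these 17, 6 rose in Herb vs. OVA as deposited, with C1d at 0.59 ± 0.15 and Papd5 at 0.59 ± 0.12 (limma adjusted p = 0.0142 and 0.00838). Against Saline, 5 fell in Herb, among them Exosc9 at -0.63 ± 0.12 (limma adjusted p = 0.0111). Rescaled, 1 fell and 1 rose in that comparison, and Exosc9 did not pass, at -0.22 (limma adjusted p = 0.161).

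The proteins that bind Rpph1 and Rmrp fell in 7 of 8 genes tested in OVA vs. Saline, and 0 rose. The shares of all genes were 57.9% and 3.28%. Rpp30, a subunit of both enzymes, stood at 3.35, 5.62 and 2.92 FPKM in Saline, 0.277, 0.799 and 0.477 in OVA and 1.17, 2.08, 0.974 and 1.13 in Herb. The groups did not overlap, while neither of the RNAs it binds separated OVA from Saline in FPKM. Rpp30 fell by 1.69 ± 0.24 (limma adjusted p = 0.000375) and was also lower rescaled, at -1.06 (limma adjusted p = 0.00581). Rpp14 fell by 1.18 ± 0.13 (limma adjusted p = 0.000151). After rescaling 2 of the 8, Rpp30 and Rpp14, were called lower and 0 higher, against 17.3% and 23.8% of all genes. This list turned with the choice of rescaling, since over the NM_ sum 1 was lower and 2 were higher, against 8.81% and 37.8%. Of these 8, 2 rose in Herb vs. OVA, Rpp14 at 0.60 ± 0.12 and Pop5 at 0.54 ± 0.13 (limma adjusted p = 0.00744 and 0.0104). Against Saline, 6 fell in Herb, among them Rpp21 at -0.70 ± 0.23 (limma adjusted p = 0.049). Of these 6, 1 was still called lower after rescaling to the 75th percentile, Rpp30 at -0.71 (limma adjusted p = 0.0498), and 0 over the NM_ sum, and Rpp21 did not pass, at -0.30 rescaled (limma adjusted p = 0.468). Pop1, the largest shared subunit, stood at 0.529 to 1.21 FPKM and was below the minimum for testing.

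Of the telomerase proteins and the factors that mature Terc, 6 of 10 fell in OVA vs. Saline and 0 rose. The shares of all genes were 57.9% and 3.28%. After rescaling 1 fell and 3 rose, against 17.3% and 23.8%. Over the NM_ sum 1 fell and 4 rose, against 8.81% and 37.8%. Nop10, a protein of the particles that stabilise Terc, fell by 2.55 ± 0.26 as deposited (limma adjusted p = 0.000149) and was lower rescaled, at -1.67 (limma adjusted p = 0.00185). Dkc1, the pseudouridine synthase dyskerin of the same particles, fell by 1.09 ± 0.18 as deposited (limma adjusted p = 0.000725) but differed by -0.30 rescaled (limma adjusted p = 0.113). Ruvbl1, an assembly factor of these particles, fell as deposited, at -1.09 ± 0.20 (limma adjusted p = 0.00139), and did not pass rescaled, at -0.19 (limma adjusted p = 0.515). Of these 10, 5 rose in Herb vs. OVA, among them Nop10 at 1.08 ± 0.24 and Dkc1 at 0.64 ± 0.17 (limma adjusted p = 0.00945 and 0.0156). Against Saline, 2 fell in Herb, Nop10 at -1.47 ± 0.24 and Naf1 at -0.52 ± 0.13 (limma adjusted p = 0.00893 and 0.0209). Rescaled, 1 fell and 1 rose, with Nop10 at -1.03 and Naf1, which did not pass, at -0.15 (limma adjusted p = 0.0278 and 0.389).

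The RNA polymerase III machinery, which makes Rmrp and Rpph1, held the only list gene that rose in OVA vs. Saline as deposited. Snapc4, of the complex that binds the promoters of small nuclear RNA genes and of Rmrp and Rpph1, stood at 2.02, 1.62 and 2.17 FPKM in Saline, 3.18, 3.03 and 3.25 in OVA and 1.90, 2.40, 3.05 and 2.31 in Herb. It rose as deposited, at 0.50 ± 0.14 (limma adjusted p = 0.0103), and rescaled, at 1.33 (limma adjusted p = 0.00112). Another subunit of that complex, Snapc5, fell by 2.01 ± 0.26 as deposited (limma adjusted p = 0.000227) and was lower rescaled, at -1.08 (limma adjusted p = 0.00542). Maf1, a repressor of RNA polymerase III, fell by 2.39 ± 0.36 (limma adjusted p = 0.000469) and was lower rescaled, at -1.69 (limma adjusted p = 0.0112). In all, 15 of 27 fell as deposited and 1 rose, against 57.9% and 3.28% of all genes. After rescaling 3 fell and 8 rose, against 17.3% and 23.8%. Over the NM_ sum 2 fell and 12 rose, against 8.81% and 37.8%.

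As deposited, 12 of these 27 rose in Herb vs. OVA, with Maf1 at 1.38 ± 0.34 and the subunit Polr3f at 0.79 ± 0.12 (limma adjusted p = 0.0124 and 0.00716), and 0 passed rescaled. In Herb vs. Saline 5 fell, among them Snapc5 at -1.40 ± 0.24 and Polr3k at -0.63 ± 0.19 (limma adjusted p = 0.00959 and 0.0383). Rescaled, 1 fell and 1 rose, with Snapc5 at -0.96 and Polr3k, which did not pass, at -0.22 (limma adjusted p = 0.0227 and 0.362). The largest subunit gene Polr3a differed by -0.60 ± 0.35 in OVA vs. Saline and did not pass (limma adjusted p = 0.171). Ssb, the La protein that binds new RNA polymerase III transcripts, stood at 11.9, 0.0426 and 0.0455 FPKM in Saline, at 2.46 to 5.80 in OVA and at 0.0254 to 6.61 in Herb, and did not pass (limma adjusted p = 0.449). Values near 0 beside such high ones in the same group can be failed estimates, so nothing is read from the missing call.

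**Figure D5:**
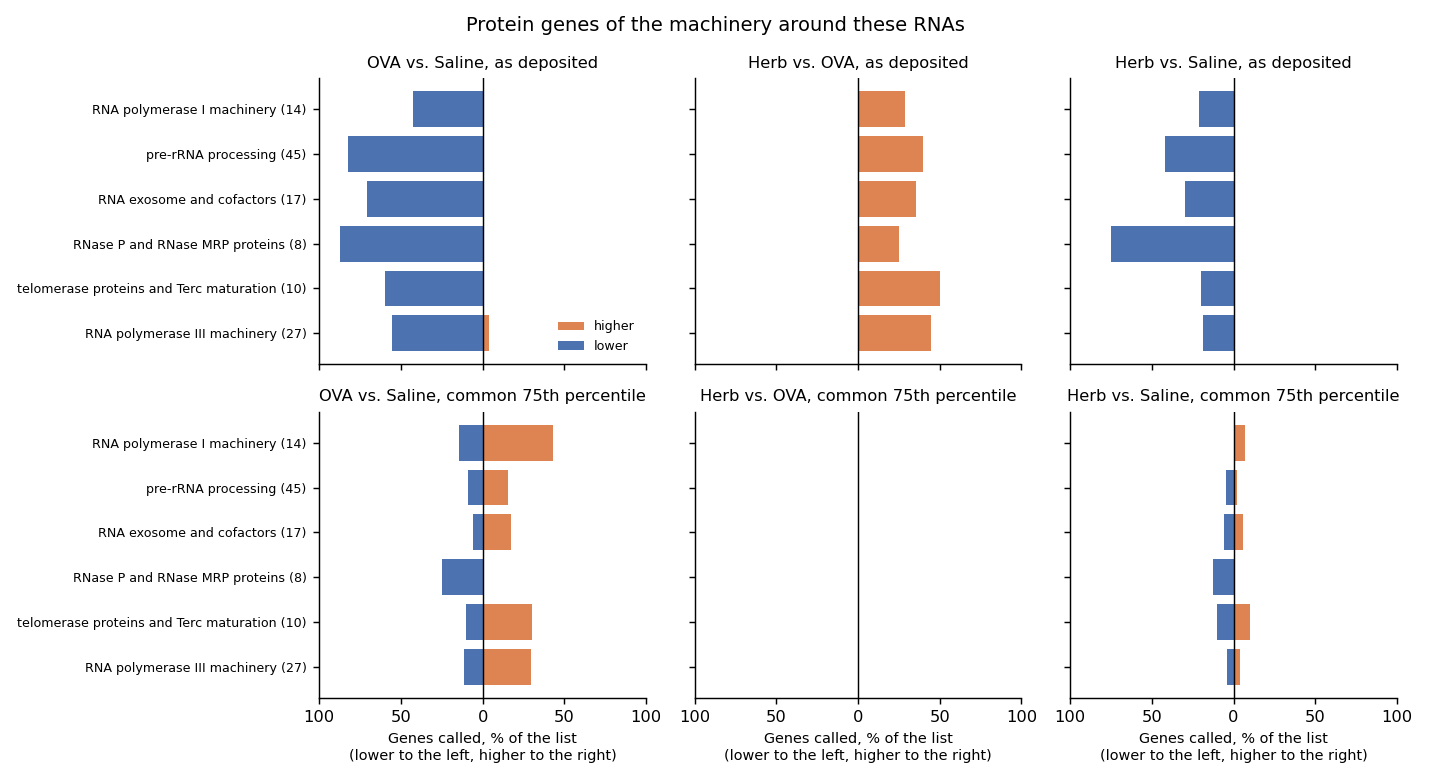
Share of the genes tested in each of the 6 lists (number in brackets) that limma called lower (bars to the left) or higher (bars to the right) at an adjusted p under 0.05, for the 3 comparisons as deposited (upper row) and after rescaling to a common 75th percentile (lower row). The calls in OVA vs. Saline lie almost wholly to the left as deposited and on both sides after rescaling, and Herb vs. OVA has 0 calls after rescaling.

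The counts in the lists also depended on single libraries in the comparisons with Herb. In Herb vs. Saline the 40 calls became 9 without Saline replicate 2, 17 without Saline replicate 3, 21 without Herb replicate 3 or Herb replicate 4 and 24 without Saline replicate 1. In Herb vs. OVA the 47 became 27 without OVA replicate 1 and 31 without Herb replicate 1.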

How the data were processed

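Lung RNA of 10 mice was sequenced in pairs of 76-base reads. The labels name Trizol and a TruSeq RNA kit, whereas the methods name a column kit and a stranded TruSeq mRNA kit, so it is not settled whether strand was kept. Per the labels, the authors used cutadapt 1.10, HISAT2, StringTie 1.3.3b and edgeR 3.16.5 on mm10, and the methods also name ballgown. The authors deposited FPKM, fragments scaled to transcript length and to the mapped fragments of each library, with no further scaling between libraries. A class of RNA that takes up more fragments therefore lowers the FPKM of all others. FPKM are not counts, so no count model was used.

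The members and gene lists were chosen with earlier results of these data known. Groups came from the labels. Each library was 1 mouse, per the methods. Depth was estimated from the value of 1 fragment in low single-exon genes, is approximate, and gave the Poisson intervals (95%). Rows of a symbol were summed. Limma 3.58.1 in R 4.3.3 (lmFit, eBayes with trend) was run on log2(FPKM + 1) with all 10 libraries and 3 group means, over 11205 genes with a mean of at least 1 FPKM, with Benjamini-Hochberg adjustment and a threshold of 0.05. It was tested on simulated data. Alternatives were a pseudocount of 0.1, no filter, rescaling to the 75th percentile or to the NM_ sum, the replicate block, only the 2 groups compared, transcript rows, other denominators of the ratios, and leaving out each library.

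Named genes were all members, the 3 rows most like each, 13 core machinery genes, and for each list and comparison up to 2 genes with the largest positive and 2 with the largest negative log2 difference among calls whose groups do not overlap. MicroRNA rows that align to Rn45s, also in the rule, were not searched, since no Rn45s sequence was used here. Other steps ran in Python 3.11.15 with matplotlib 3.10.9, pandas 2.3.3, scipy 1.17.1 and numpy 2.4.6. Sequences came from RefSeq (GRCm38.p6) and GENCODE vM21 (GRCm38), the assembly that mm10 represents.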

Additional observations from a re-analysis of the deposited data

Results flagged for a closer look

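In Herb, the summed FPKM of the 5 structural RNAs was highest in replicate 3, at 27729, which stood apart from the other 3 libraries (25420, 25759 and 25786): the gap to the next library was 0.842 of the range. Of 44 quantities examined in the Herb libraries, this was the 1 so marked, and chance marks about 1 in 20.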

How the results depend on the processing

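Scaling between libraries moved most values. After rescaling to the 75th percentile, the called genes became 92 in Herb vs. OVA and 1762 in Herb vs. Saline, and the list genes called became 40, 0 and 11 in OVA vs. Saline, Herb vs. OVA and Herb vs. Saline. After rescaling to the NM_ sum, 621 genes were called in Herb vs. OVA, and 14 and 13 list genes in Herb vs. OVA and Herb vs. Saline. In the order 75th percentile and NM_ sum, the log2 differences in OVA vs. Saline became 4.25 and 4.64 for Rn45s, 5.85 and 6.24 for Mir6236, 0.90 and 1.29 for Rmrp, 1.18 and 1.57 for Rpph1 and 0.84 and 1.07 for Terc. In Herb vs. OVA they became -1.77 and -1.96 for Rn45s, -0.72 and -0.91 for Rmrp, -0.70 and -0.89 for Rpph1 and -0.20 and -0.33 for Terc, and -2.92 for Mir6236 over the NM_ sum. In Herb vs. Saline they became 2.48 and 2.68 for Rn45s and 0.18 and 0.38 for Rmrp, and over the NM_ sum 0.68 for Rpph1 and 0.74 for Terc. The cause was not tested.

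Labels share replicate numbers, but same-numbered libraries of different groups did not deviate together (r from -0.00869 to 0.0953) and were not treated as pairs. With the replicate block, 1342 genes and 15 list genes were called in Herb vs. Saline. Herb replicate 4 shares its number with no library, so it adds nothing to that fit.

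Leaving out 1 library at a time gave 6118 to 6839 genes and 76 to 83 list genes in OVA vs. Saline, 3221 to 5070 and 27 to 47 in Herb vs. OVA, and 894 to 3254 and 9 to 45 in Herb vs. Saline. In Herb vs. OVA the 3221 came without OVA replicate 1. In Herb vs. Saline 894 genes were called without Saline replicate 2, 1360 without Saline replicate 3, 1510 without Saline replicate 1, 1535 without Herb replicate 3 and 1608 without Herb replicate 4. The Rn45s differences ran from 2.95 to 3.17, -1.23 to -0.86 and 1.86 to 2.24 in the same order of comparisons. Those of Mir6236 ran from 4.32 to 5.12, -2.47 to -1.65 and 2.27 to 3.06. Those of Rmrp ran from -0.46 to -0.04, -0.15 to 0.16 and -0.40 to -0.08. Those of Rpph1 ran from -0.26 to 0.48, -0.48 to 0.23 and -0.29 to 0.25, and those of Terc from 0.07 to 0.38, 0.04 to 0.35 and 0.30 to 0.53. The log2 ratio of Mir6236 to Rn45s ran from 1.31 to 1.99, -1.32 to -0.75 and 0.34 to 0.87. The other pseudocount, no filter, the block and the fit of 2 groups moved none of 60 member values beyond the spread between libraries. Counting error is widest for Terc, which rested on under 19 estimated fragments a library.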
